A study of Homo sapiens with 6 samples.

Results

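Matrix metalloproteinases (MMPs), tissue inhibitors of metalloproteinases (TIMPs) and the urokinase-type plasminogen activator were examined at the mRNA level in human breast epithelial cells depleted of the transcription factor PAX9. The genes were chosen by name as MMP1, MMP2, MMP3, MMP9, MMP10, MMP14, TIMP1, TIMP3 and PLAU, and each was found by its exact symbol in the deposited RNA-seq table. These are 9 of the 26822 gene symbols in that table, and 4 of the 9 (MMP14, TIMP1, TIMP3 and PLAU) had a level of at least 1 FPKM in the higher group, the limit above which genes are called expressed here. FPKM, a count of sequenced fragments, is scaled to the length of the transcript and to the mapped reads of the library, so that levels can be set side by side between genes.

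The cells were MCF10A, a non-tumorigenic line derived from human breast epithelium, grown in medium with horse serum, epidermal growth factor, hydrocortisone, cholera toxin and insulin. Both groups received siRNA at 30 nM for 72 h with a lipid reagent: a non-targeting siRNA in the 3 siNT samples and siRNAs against PAX9 in the 3 siPAX9 samples. No untransfected sample was analysed here, and the labels do not say whether the 3 samples of a group came from separate cultures. The table gives 1 combined FPKM per gene and group, with no value per sample. No spread between samples was computed here, the authors' own test columns were not used, and every difference below is the ratio of 2 combined values, described without an error or a test.

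MMPs are zinc-dependent endopeptidases that are made as inactive proenzymes and cleave collagens, laminins, fibronectin and other proteins of the extracellular matrix. TIMPs bind the active site of MMPs and block them, and TIMP3 differs from its relatives in being held in the matrix and in also inhibiting several ADAM proteases. Urokinase, the product of PLAU, cleaves plasminogen to plasmin, which degrades fibrin and can activate several MMP proenzymes. In breast epithelium these enzymes take part in branching of the ducts, in involution of the gland and in wound closure.

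PAX9 itself was listed at 2.80 FPKM in siNT and 0.325 FPKM in siPAX9, a log2 ratio of -3.10, in the direction of the labels, and it overlaps SLC25A21 on the opposite strand (0.861 and 0.487 FPKM). All 10 basal breast epithelial markers (KRT5, KRT14, KRT17 and TP63 among them) were at 1 FPKM or more in both groups, which matches the labelled cell type. Their summed FPKM was 4137 in siNT and 5469 in siPAX9. Of the 10, 2 (KRT6A and CDH1) were 2-fold higher in siPAX9 and 0 were 2-fold lower, beside 7.75% and 7.22% of all expressed genes. Of 8 luminal markers, 4 reached 1 FPKM in each group: KRT18 (212 and 119 FPKM), KRT8 (51.7 and 58.7), GATA3 (6.19 and 7.56) and FOXA1 (1.10 and 2.86). ESR1 (0.0560 and 0.317 FPKM), PGR, KRT19 and ELF5 did not. The summed FPKM of the 8 luminal markers was 271 in siNT and 188 in siPAX9. The summed FPKM of 8 fibroblast markers was 8.48 in siNT and 46.5 in siPAX9, most of it DCN (5.85 and 37.9), while COL3A1 was listed at 0 in both groups and COL1A2 was at 0 and 0.00337. The sum of 8 leukocyte markers was 19.0 and 65.9, most of it CD14 (14.4 and 56.5), with CD3E at 0 in both groups and PTPRC at 0.0166 and 0.0922. The sum of 5 endothelial markers was 3.95 and 2.49, with PECAM1 lower (2.58 and 0.495) and KDR higher (0.798 and 1.94) in siPAX9. In bulk RNA a larger share of cells of a type and more RNA per cell cannot be told apart, and the part of either in the values below was not tested.

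The genes fell into an expressed and a near-silent set. TIMP1, MMP14, PLAU and TIMP3 lay between 14.7 and 525 FPKM in both groups, and MMP1, MMP2, MMP3, MMP9 and MMP10 lay below 0.62 FPKM in both. Among the expressed genes the direction was split by gene and not by function: TIMP1 and MMP14 were lower in siPAX9, and TIMP3 and PLAU were higher. By the criterion of a 2-fold difference with at least 1 FPKM in the higher group, 1 of the 4 expressed genes was higher (TIMP3), 1 was lower (TIMP1) and 2 were within 2-fold. Over all 13622 gene symbols with at least 1 FPKM in the higher group, 7.75% were 2-fold higher and 7.22% were 2-fold lower in siPAX9. The median log2 ratio was -0.12 for the 4 genes and -0.07 for all 13622.

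**Figure D1:**
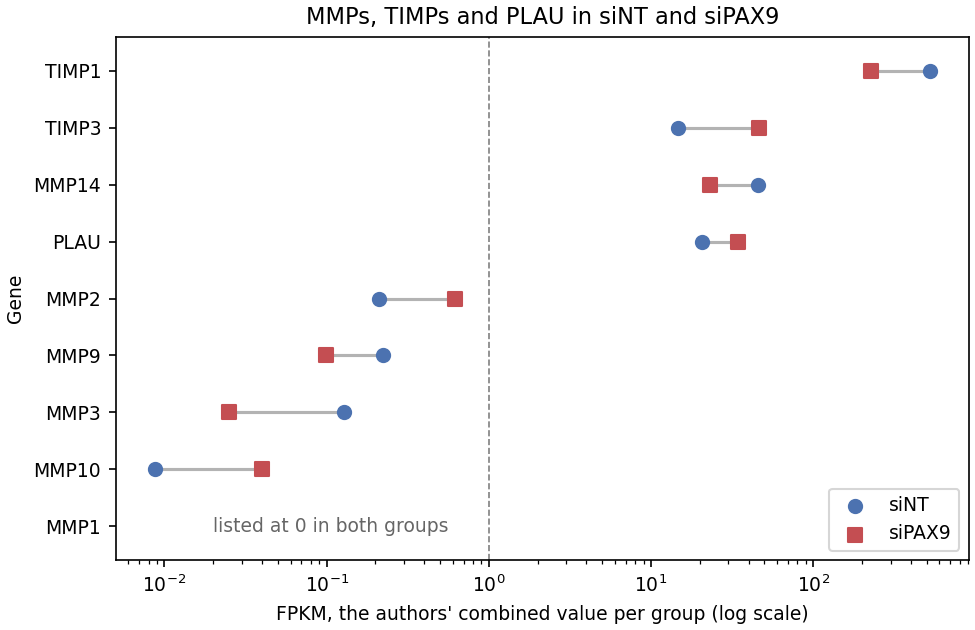
FPKM of the 9 genes (x axis, log scale) in siNT (blue circles) and siPAX9 (red squares), 1 combined value per group, with no error bar because the table gives no value per sample; the dashed line marks 1 FPKM. TIMP1, TIMP3, MMP14 and PLAU lie to the right of the line in both groups, and the other genes lie to the left of it or at 0.

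The sequences just before the transcription starts are shown to set the promoters of the expressed genes beside those of MMP10 and of relatives with large ratios. Promoter windows of 300 bases (250 before and 50 after the start, RefSeq, GRCh38.p14) were found for MMP10, MMP14, TIMP1, TIMP3 and PLAU, and not for MMP1, MMP2, MMP3 and MMP9. The 110 bases before the start are given 5′ to 3′ on the gene's strand, with MMP7 and SERPINB2 as the relatives, and capitals mark the matched motifs. The motifs were searched on both strands as the AP-1 site TGANTCA, the ETS core AGGAAG, the TATA box TATAAA and the GC box GGGCGG, and no match shown overlaps another.
MMP10, chr11:102780629-102780738, minus strand: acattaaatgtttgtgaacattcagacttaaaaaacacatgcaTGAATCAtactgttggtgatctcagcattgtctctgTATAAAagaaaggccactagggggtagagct
MMP7, chr11:102530748-102530857, minus strand: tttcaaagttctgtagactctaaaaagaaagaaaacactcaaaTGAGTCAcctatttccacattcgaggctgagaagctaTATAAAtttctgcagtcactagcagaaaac
SERPINB2, chr18:63887595-63887704, plus strand: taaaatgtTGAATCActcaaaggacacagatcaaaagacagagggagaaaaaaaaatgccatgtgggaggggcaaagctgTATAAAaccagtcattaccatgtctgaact
MMP14, chr14:22836475-22836584, plus strand: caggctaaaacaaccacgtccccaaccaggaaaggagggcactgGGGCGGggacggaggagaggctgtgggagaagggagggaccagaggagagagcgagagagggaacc
TIMP1, chrX:47582326-47582435, plus strand: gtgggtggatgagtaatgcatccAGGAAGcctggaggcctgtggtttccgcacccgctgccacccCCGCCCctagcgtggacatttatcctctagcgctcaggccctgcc
TIMP3, chr22:32801595-32801704, plus strand: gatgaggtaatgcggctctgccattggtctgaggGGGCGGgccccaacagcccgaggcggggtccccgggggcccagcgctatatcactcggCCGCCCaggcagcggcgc
PLAU, chr10:73911022-73911131, plus strand: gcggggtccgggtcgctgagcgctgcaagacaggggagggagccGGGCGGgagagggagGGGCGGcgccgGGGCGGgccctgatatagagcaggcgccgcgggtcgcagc

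MMP10 and MMP7, from the same cluster on chromosome 11, both had an AP-1 match whose first base lay at -67 from the start, and a TATA box at -31 and -30. SERPINB2 had the same pair of elements, at -102 and -30. The 4 expressed genes of the main set had neither of these strings in their windows and had GC boxes, 1 in MMP14 (at -66), 2 in TIMP1, 5 in TIMP3 and 3 in 1 of the 2 RefSeq windows of PLAU. The ETS core was matched in TIMP1 at -87, in PLAU at -221, in MMP7 at -169 and -145, and in SERPINB2 at -119. Over the other listed genes these elements were found at high and low levels alike: the abundant ANXA2 also had an AP-1 match (at -127) and a TATA box (at -31), PLAUR had an AP-1 match at -186, MMP20, listed at 0, had an AP-1 match at -112 and a TATA box at -72, and MMP11, MMP23B and MMP24, all below 1 FPKM, had GC boxes and neither AP-1 nor TATA strings. Of 35116 windows of the same length, 7.71% held the AP-1 string, 11.5% the TATA box, 33.6% the ETS core and 45.0% the GC box. A match of letters is no bound site, and a window without one says nothing of the factor.

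MMP14 encodes membrane-type MMP, a collagenase anchored in the plasma membrane that processes the proenzyme of MMP2 with the help of TIMP2. The gene lies on chromosome 14 (hg19, 23305769-23318250, plus strand). MMP14 was listed at 45.4 FPKM in siNT and 23.0 FPKM in siPAX9, a ratio of 0.507 and a log2 ratio of -0.98. The difference fell just short of 2-fold, and 7.45% of all expressed genes had a log2 ratio as low or lower. MMP14 stood at percentile 86.6 of expressed genes by level in siNT and at percentile 74.7 in siPAX9.

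The gelatinases MMP2 and MMP9, which degrade denatured collagen and basement membrane collagen, were near the bottom of the range and went in opposite directions. MMP2 (chromosome 16, 55423612-55540603) was listed at 0.210 FPKM in siNT and 0.619 FPKM in siPAX9, a log2 ratio of 1.56. MMP9 (chromosome 20, 44637547-44645200) was listed at 0.223 and 0.0992 FPKM, a log2 ratio of -1.17. These levels rest on few reads. The FPKM worth of 1 read, recovered from loci with very low values, put MMP2 at about 30 to 52 reads over the 3 siNT libraries and 81 to 120 over the 3 siPAX9 libraries. MMP9 came to about 21 to 36 and 8.7 to 12 reads in the same way. Neither gene reached 1 FPKM in either group, so neither was counted as higher or lower.

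The collagenase MMP1 and the stromelysins MMP3 and MMP10, which lie in 1 cluster of MMP genes on chromosome 11, were at or close to 0. MMP1 (102660132-102668891, minus strand) was listed at 0 in both groups. MMP3 (102706532-102714340, minus strand) was listed at 0.129 FPKM in siNT and 0.0250 FPKM in siPAX9, about 9.6 to 16 reads against 1.7 to 2.4. MMP10 (102641233-102651359, minus strand) was listed at 0.00870 and 0.0398 FPKM, about 0.62 to 1.1 reads against 2.6 to 3.8. The log2 ratios, -2.37 for MMP3 and 2.19 for MMP10, therefore rest on a handful of reads in 3 libraries. MMP1 and MMP3 share a locus interval in the deposited table with the pseudogene WTAPP1, which was also at 0 in both groups.

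The whole cluster spans 435 kb (102391239-102826461) and holds 9 MMP genes, 4 of which (MMP20, MMP27, MMP8 and MMP1) were listed at 0 in both groups. Of the other 5, MMP7 alone reached 1 FPKM. MMP7, or matrilysin, an epithelial MMP without the hemopexin domain of its relatives, was listed at 0.0294 FPKM in siNT and 1.72 FPKM in siPAX9, about 1.6 to 2.7 reads against 85 to 120, a log2 ratio of 5.87, or 1.40 with 1 FPKM added to both groups. MMP13 at the far end of the cluster was listed at 0.00760 and 0.0892 FPKM, about 0.84 to 1.4 reads against 9.1 to 13. MMP12 was listed at 0 and 0.0105 FPKM, the latter about 0.71 to 1 read. Apart from MMP7 in siPAX9, every value in the cluster thus rested on 16 reads or fewer.

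**Figure D2:**
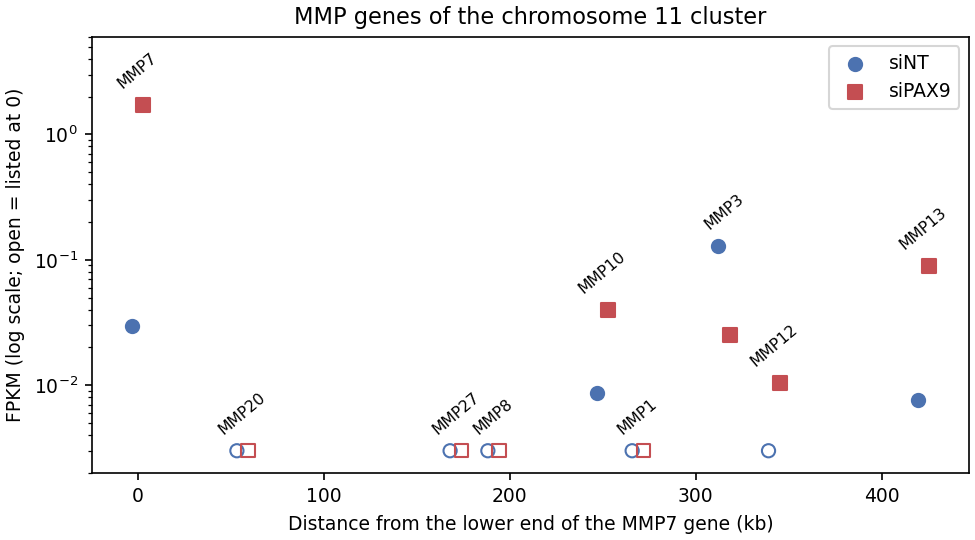
FPKM (y axis, log scale) of the MMP genes of the chromosome 11 cluster against the distance of the lower end of each gene from that of MMP7 (x axis, kb), siNT as blue circles and siPAX9 as red squares, shifted slightly apart; open symbols at the foot mark values listed at 0. MMP7 in siPAX9 is the single value above 1 FPKM.

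Of the 17 other MMP genes listed for comparison, 5 had at least 1 FPKM in the higher group. Of these 5, MMP7 and MMP28 were 2-fold higher, MMP17 was 2-fold lower and MMP15 and MMP19 were within 2-fold, with a median log2 ratio of 0.76 against -0.07 for all expressed genes, of which 7.75% were higher and 7.22% lower. MMP28, or epilysin, a secreted MMP of keratinocytes and other epithelia, was listed at 30.7 FPKM in siNT and 65.0 FPKM in siPAX9, a log2 ratio of 1.08. It shares its locus interval with C17orf50 on the opposite strand, listed at 0.471 and 3.41 FPKM. MMP17, a membrane-anchored MMP, was listed at 1.94 and 0.764 FPKM, a log2 ratio of -1.35 (-0.74 with 1 FPKM added to both groups, which ends the call). MMP15, a relative of MMP14, was listed at 1.71 and 2.89 FPKM (log2 ratio 0.76), and MMP19 at 1.09 and 1.00 FPKM (log2 ratio -0.11).

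MMP14 and MMP28 together made up most MMP mRNA in both groups, and their order was exchanged. The summed FPKM of the 23 MMP genes was 82.6 in siNT and 97.1 in siPAX9, a log2 ratio of 0.23. MMP14 made up 54.9% of the sum in siNT and 23.7% in siPAX9. MMP28 made up 37.2% and 67.0%. The ratio of MMP28 to MMP14 was 0.677 in siNT and 2.83 in siPAX9. The sum over the family thus differed little, while the most abundant MMP mRNA was the membrane-anchored MMP14 in siNT and the secreted MMP28 in siPAX9.

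TIMP1, a secreted glycoprotein that inhibits most MMPs but is a poor inhibitor of MMP14, had the highest level of the 9 genes in both groups. The gene lies on chromosome X (47441807-47446188, plus strand). TIMP1 was listed at 525 FPKM in siNT and 226 FPKM in siPAX9, a ratio of 0.431 and a log2 ratio of -1.21. Of all expressed genes, 4.93% had a log2 ratio as low or lower, and TIMP1 kept a place near the top of the levels, at percentile 98.8 in siNT and 98.0 in siPAX9. TIMP1 lies within SYN1 on the opposite strand, and whether reads were counted by strand is not given in the sources used here. SYN1 was listed at 0.163 and 0.0373 FPKM and ARAF, which shares the locus interval, at 19.0 and 14.8 FPKM, both far below TIMP1.

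TIMP3, the matrix-bound inhibitor, went the other way. The gene lies on chromosome 22 (33197691-33259028, plus strand). TIMP3 was listed at 14.7 FPKM in siNT and 46.4 FPKM in siPAX9, a ratio of 3.15 and a log2 ratio of 1.65. Its place among expressed genes by level went from percentile 60.3 to percentile 87.9, and its log2 ratio stood at percentile 95.9. TIMP3 lies within SYN3 on the opposite strand, which was listed at 5.38 and 3.73 FPKM, lower in siPAX9 where TIMP3 was higher. Of the 8 fibroblast markers, 3 had at least 1 FPKM in the higher group (DCN, COL1A1 and FAP), and these were 2-fold higher in siPAX9 as TIMP3 was, beside 7.75% of all expressed genes. COL1A1 (0.454 and 4.13 FPKM) reached 1 FPKM only in siPAX9, so it was counted through the group where it was high. With 1 FPKM added to both groups FAP was no longer 2-fold higher (log2 ratio 0.79). COL3A1 was at 0 in both groups, COL1A2 was at or near 0, and the part of fibroblast-type RNA in the TIMP3 value was not tested.

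**Figure D3:**
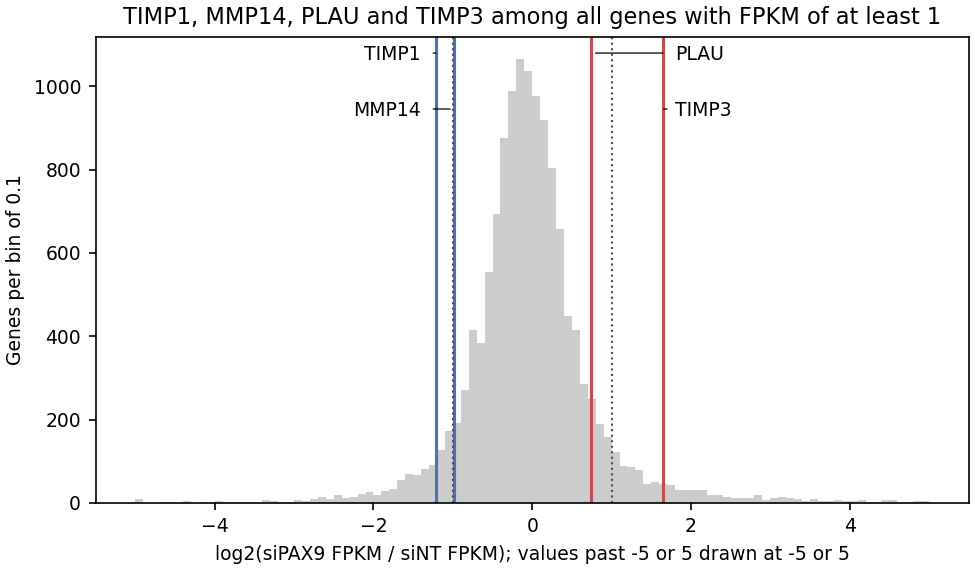
Number of genes (y axis) per bin of 0.1 in the log2 ratio of siPAX9 to siNT FPKM (x axis) for the 13622 gene symbols with at least 1 FPKM in the higher group, leaving out those listed at 0 in 1 group; dotted lines mark 2-fold. Blue lines mark TIMP1 (-1.21) and MMP14 (-0.98), on the lower shoulder, and red lines mark PLAU (0.75) and TIMP3 (1.65), on the upper one.

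The remaining inhibitors were within 2-fold, as most expressed genes were. TIMP2, the partner of MMP14 in processing MMP2, was listed at 35.1 FPKM in siNT and 50.1 FPKM in siPAX9, a log2 ratio of 0.51. RECK, a membrane-anchored MMP inhibitor, was at 1.44 and 1.22 FPKM (log2 ratio -0.24), and the proteoglycan SPOCK1 was at 2.77 and 2.54 FPKM (log2 ratio -0.12). These were the 3 expressed genes of the 5 listed, beside 7.75% higher and 7.22% lower over all expressed genes, and TIMP4 and A2M were below 0.016 FPKM in both groups.

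Set against each other, the TIMPs were fewer in total and more even in siPAX9. The summed FPKM of TIMP1 to TIMP4 was 575 in siNT and 323 in siPAX9, a log2 ratio of -0.83. TIMP1 made up 91.3% of the sum in siNT and 70.1% in siPAX9, TIMP2 6.12% and 15.5%, and TIMP3 2.57% and 14.4%. The ratio of TIMP1 to TIMP3 was 35.6 in siNT and 4.88 in siPAX9. TIMP1 and MMP14 differed in parallel, with a ratio of 11.6 and 9.85, while the ratio of TIMP3 to MMP14 was 0.325 and 2.02. The ratio of MMP14 to TIMP2 was 1.29 in siNT and 0.459 in siPAX9.

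**Figure D4:**
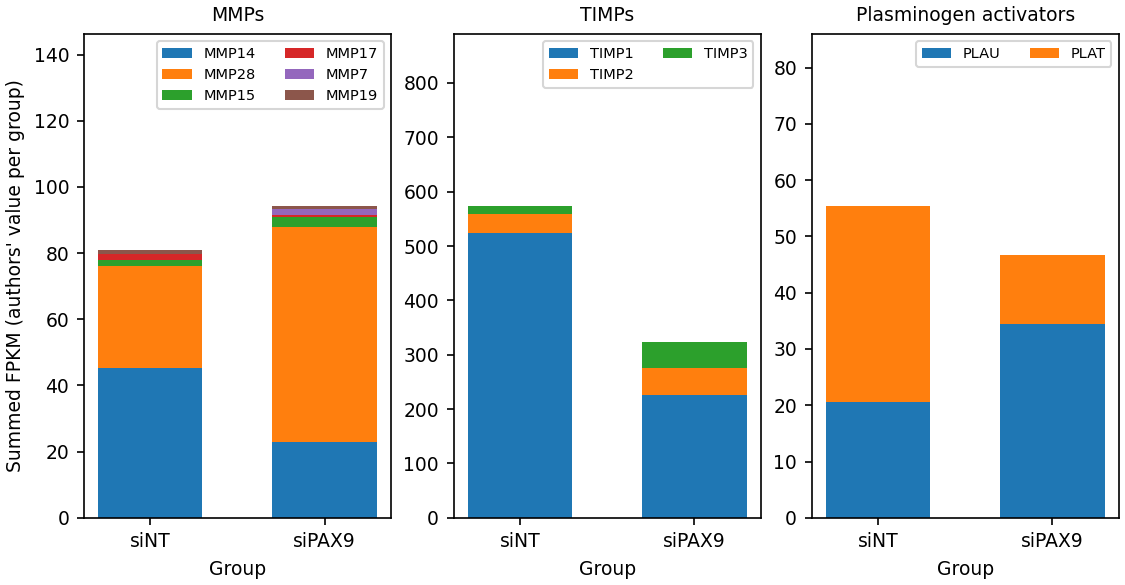
Summed FPKM (y axis, linear from 0, a scale of its own in each panel) in siNT and siPAX9, stacked by gene, for the MMPs with at least 1 FPKM in the higher group, the TIMPs without TIMP4 (below 0.016 FPKM), and the plasminogen activators; each bar is 1 combined value per group, with no error bar. MMP14, TIMP1 and PLAT fill less of their bars in siPAX9, and MMP28, TIMP3 and PLAU fill more.

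PLAU, the gene of urokinase, lies on chromosome 10 (75668935-75677254, plus strand). PLAU was listed at 20.5 FPKM in siNT and 34.4 FPKM in siPAX9, a ratio of 1.68 and a log2 ratio of 0.75. The difference was under 2-fold, although 88.7% of expressed genes had a lower log2 ratio. PLAU overlaps C10orf55 on the opposite strand, which was listed at 2.29 and 4.65 FPKM and so went the same way at a level well below PLAU.

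The other plasminogen activator went the opposite way. PLAT, which encodes the tissue-type activator that cleaves plasminogen mainly at fibrin, was listed at 35.0 FPKM in siNT and 12.3 FPKM in siPAX9, a log2 ratio of -1.51. The sum of both activators was 55.5 and 46.7 FPKM, a log2 ratio of -0.25. PLAU made up 37.0% of it in siNT and 73.7% in siPAX9, and the ratio of PLAU to PLAT was 0.587 and 2.80. PLG, their substrate, which is made mainly in the liver, was listed at 0 and 0.0195 FPKM.

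Of the 12 genes listed for the plasminogen system besides PLAU, 11 had at least 1 FPKM in the higher group, of which 2 were 2-fold higher, 3 were 2-fold lower and 6 were within 2-fold, with a median log2 ratio of -0.19, beside 7.75% higher and 7.22% lower over all expressed genes. The higher genes were PLAUR and SERPINB2. PLAUR, the receptor that holds urokinase at the cell surface, was listed at 4.28 FPKM in siNT and 19.8 FPKM in siPAX9, a log2 ratio of 2.21. SERPINB2, the plasminogen activator inhibitor of keratinocytes and macrophages, was listed at 0.0742 FPKM (about 6.5 to 11 reads) and 8.85 FPKM (about 710 to 1000 reads), a log2 ratio of 6.90, or 3.20 with 1 FPKM added to both groups. Of the 3 expressed leukocyte markers, CD14 and CSF1R were also 2-fold higher in siPAX9, beside 7.75% of all expressed genes, and CD68 was within 2-fold (3.38 and 3.77 FPKM). CSF1R (0.699 and 4.69 FPKM) reached 1 FPKM only in siPAX9, so it was counted through the group where it was high. PTPRC stayed below 0.1 FPKM in both groups, and the part of leukocyte-type RNA in the PLAUR and SERPINB2 values was not tested.

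The lower genes were PLAT and the inhibitors SERPINE2 and SERPINF2. SERPINE2, or protease nexin, which inhibits thrombin and urokinase, was listed at 5.11 FPKM in siNT and 1.46 FPKM in siPAX9, a log2 ratio of -1.80. SERPINF2, the main inhibitor of plasmin, was listed at 10.9 and 3.31 FPKM, a log2 ratio of -1.72. The ratio of PLAU to PLAUR was 4.80 in siNT and 1.74 in siPAX9, and the ratio of PLAU to SERPINB2 was 276 and 3.89. The value of 276 is rough, since it divides by SERPINB2 at 0.0742 FPKM in siNT, about 6.5 to 11 reads.

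The proteins that bind plasminogen at the cell surface or clear its activators were within 2-fold. ANXA2 and S100A10, which form 1 complex, were listed at 268 and 377 FPKM and at 314 and 361 FPKM, log2 ratios of 0.49 and 0.20. ENO1, a glycolytic enzyme also found at the surface, was at 755 and 552 FPKM (log2 ratio -0.45). The plasminogen receptor gene PLGRKT was at 10.7 and 5.93 FPKM (log2 ratio -0.85). LRP1, the endocytic receptor that takes up complexes of proteases with their inhibitors, was at 11.8 and 13.7 FPKM (log2 ratio 0.21), and the intracellular inhibitor SERPINB6 was at 41.0 and 36.0 FPKM (log2 ratio -0.19).

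**Figure D5:**
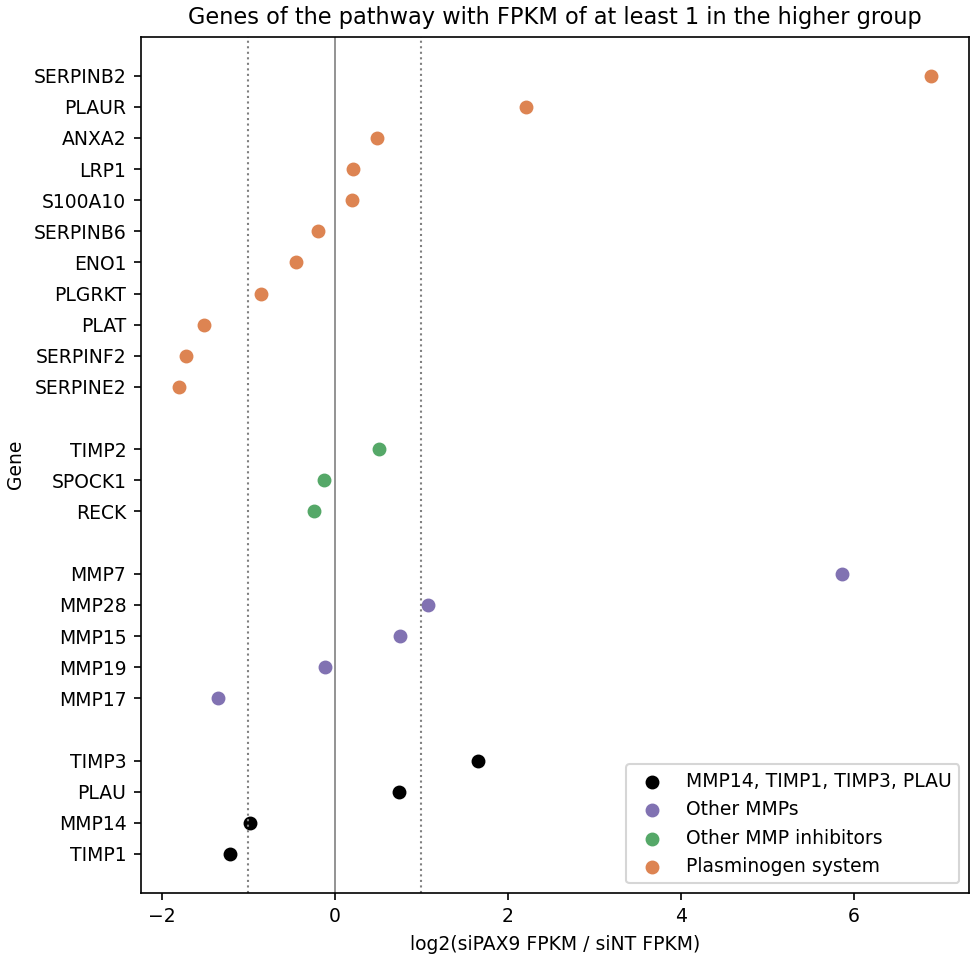
Log2 ratio of siPAX9 to siNT FPKM (x axis), 1 point per gene with at least 1 FPKM in the higher group, for MMP14, TIMP1, TIMP3 and PLAU (black), other MMPs (purple), other MMP inhibitors (green) and the plasminogen system (orange); dotted lines mark 2-fold. SERPINB2 (6.90), MMP7 (5.87) and PLAUR (2.21) lie farthest to the right, SERPINE2 (-1.80) farthest to the left, and the inhibitors RECK, SPOCK1 and TIMP2 lie within 2-fold.

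Enzymes that cleave proenzymes or shed surface proteins were mostly within 2-fold, as were all expressed genes (7.75% higher and 7.22% lower). Of 9 genes listed as proenzyme-processing proteases and related enzymes, 6 were expressed. KLK7, a chymotrypsin-like protease of the epidermis, was 2-fold higher at 0.394 FPKM in siNT and 25.5 FPKM in siPAX9, a log2 ratio of 6.02 (4.25 with 1 FPKM added). PCSK6, a proprotein convertase, was 2-fold lower at 11.9 and 5.80 FPKM, a log2 ratio of -1.04 (-0.96 when centred on the median of genes at 1 FPKM or more in both groups, which ends the call). The other 4 were within 2-fold, with FURIN among them, named here outside the rule because it cleaves the proenzyme of MMP14, and the median log2 ratio of the 6 was 0.19. All 7 expressed genes of 13 ADAM and ADAMTS genes were within 2-fold, with a median log2 ratio of -0.02.

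Among 18 matrix and surface substrates, 17 were expressed, of which 2 were 2-fold higher, 3 were 2-fold lower and 12 were within 2-fold, with a median log2 ratio of 0.22, beside 7.75% higher and 7.22% lower over all expressed genes. FN1, which encodes fibronectin, was listed at 0.588 FPKM in siNT and 25.2 FPKM in siPAX9, a log2 ratio of 5.42 (4.05 with 1 FPKM added). COL7A1, the collagen of the anchoring fibrils below the epidermis, was at 1.59 and 6.37 FPKM, a log2 ratio of 2.00. SPARC, a collagen-binding glycoprotein, was at 8.73 and 1.32 FPKM, a log2 ratio of -2.73. The chains COL4A1 and COL4A2, which are encoded head to head and build the common type of basement membrane collagen, were at 7.73 and 2.16 FPKM and at 16.1 and 5.74 FPKM, log2 ratios of -1.84 and -1.49.

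Among 14 known regulators of MMP and PLAU transcription, 13 were expressed, 3 were 2-fold lower, 10 were within 2-fold and none was 2-fold higher, with a median log2 ratio of -0.61, beside the same 7.75% and 7.22% over all expressed genes. The 3 lower genes encode ETS factors, and ETS1, the remaining ETS gene of the list, was within 2-fold at 7.89 and 6.17 FPKM (log2 ratio -0.35). ETV4 was listed at 10.6 FPKM in siNT and 3.45 FPKM in siPAX9 (log2 ratio -1.62), ETV5 at 11.1 and 4.76 FPKM (log2 ratio -1.22) and ETS2 at 109 and 52.6 FPKM (log2 ratio -1.06, or -0.98 when centred, which ends the call). Over the 7 lists together, 62 of 88 genes were expressed, and 7 were 2-fold higher and 11 were 2-fold lower (11.3% and 17.7% of the 62, beside 7.75% and 7.22% of all expressed genes), with a median log2 ratio of -0.12 beside -0.07. Of the 7 higher genes, MMP7, SERPINB2, KLK7 and FN1 were below 1 FPKM in siNT, so they were counted only through the group where they were high. Of the 11 lower genes, MMP17 was likewise counted only through siNT.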

How the data were processed

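The deposited table holds 1 FPKM per locus and group, which the authors made from single-end poly(A)+ reads. Per the labels' processing notes and the study's methods, reads were aligned to hg19 with Bowtie2 and quantified with Cufflinks in Partek. How the 3 samples of a group were combined, how libraries were scaled and whether strand was used are not given in the sources used here. The table also holds the authors' own comparison (log2 fold change, test statistic, p-value, q-value and significance), which was not used. The study's methods give library depth as a range over the 6 samples, and the table holds no depth per sample.

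Of 41656 loci, 13978 had no symbol. Each symbol was reduced to its row with the highest mean FPKM, and the log2 ratio was taken with no pseudocount. No test was made, since the table gives 1 combined value per group and the authors' test columns were not used. "Higher" and "lower" at 2-fold required at least 1 FPKM in the higher group, and such genes are called expressed. Of the 13622 expressed genes, 130 were listed at 0 in 1 group. They were counted by direction and given no ratio.

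The worth of 1 read was estimated from 442 loci under 0.02 FPKM in both groups, of which 134 (30.3%) fell on 8 shared ratios (at least 10 loci each, within 0.0015 on the log2 scale). FPKM times the length of the longest transcript gave 14.3 to 24.5 per read in siNT and 18.6 to 26.7 in siPAX9. A ratio that holds 2 reads can raise the upper value, so read numbers are rough. In simulated data the 2-fold calls found all planted genes, but these lay well past 2-fold, which says nothing of genes close to it. In 5 simulations of the estimate, its lowest and highest values came within 10% of the true ones. Those simulations used exact transcript lengths and library values near the ones recovered here.

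Gene positions are from GENCODE release 44 on GRCh37 (hg19), and promoters from RefSeq (GRCh38.p14). Protein sequences were not analysed here, and 2 genes of the lists are not reported here and were left out of their counts. Genes were named by a rule: the 9 genes, every expressed gene of the lists of other MMPs, inhibitors and plasminogen system, those past 2-fold in the other lists, at most 6 per list, PAX9 and markers. Outside it, some genes are given as such or as neighbours of these genes. MMP11, MMP23B, MMP24, TIMP4, A2M, PLG and ETS1 were also named outside it, in the promoter comparison or as remaining genes of their lists. The genes and lists were chosen with earlier results of these data known. Alternatives covered the pseudocount, centring, rows per symbol, the FPKM minimum and the fold. Python 3.11.15, numpy 2.4.6, pandas 2.3.3 and matplotlib 3.10.9 were used.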

Additional observations from a re-analysis of the deposited data

How the results depend on the processing

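No paired analysis was possible because the table gives 1 combined value per group, and for the same reason no sample could be left out in turn. Over 6 settings, the main one included, the log2 ratios stayed between -0.98 and -0.90 for MMP14 and between -1.21 and -1.13 for TIMP1. For TIMP3 they stayed between 1.59 and 1.73, and for PLAU between 0.72 and 0.83. The near-silent genes depended on the pseudocount, by its construction. With 1 FPKM added to both groups the log2 ratio was 0.42 for MMP2, -0.14 for MMP3, -0.15 for MMP9 and 0.044 for MMP10, and with 0.1 FPKM added it was -0.87 for MMP3 and 0.36 for MMP10. The share of all genes called higher was 18.6% with no minimum FPKM, 14.8% at 1.5-fold, 3.20% at 4-fold and 5.00% with 1 FPKM added. The share called lower was 10.7% with no minimum FPKM, 17.0% at 1.5-fold, 1.75% at 4-fold and 4.89% with 1 FPKM added. Of the 62 expressed genes of the 7 lists, 12 were higher and 18 lower at 1.5-fold, and 6 were higher and 1 lower at 4-fold. With no minimum FPKM, 17 of the 88 listed genes were higher and 14 lower. The excess of lower genes at 2-fold was thus not kept at 4-fold or without the minimum. Centring on the median left 9 of 11 lower (without ETS2 and PCSK6), and adding 1 FPKM also left 9 (without MMP17 at -0.74 and PCSK6 at -0.93). Adding the same amount to both groups cannot reverse a ratio, and each main gene had 1 row, so the row settings changed nothing. Only centring could have reversed a sign, so the kept signs of the 8 log2 ratios say little of robustness. Adding 1 FPKM also lowered the largest log2 ratios, to 3.20 for SERPINB2, 4.25 for KLK7, 1.40 for MMP7 and 4.05 for FN1. Depth limits MMP1, MMP3 and MMP10, for which a level of 0 or of a few reads cannot be told from another low level.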

Other observations

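Other genes of the substrate and regulator lists came close to 2-fold without reaching it, and were chosen for mention after their values were seen. BSG, the surface inducer of MMPs also known as basigin, was listed at 311 FPKM in siNT and 166 FPKM in siPAX9 (log2 ratio -0.90), and CD44, a hyaluronan receptor that MMP14 can cleave, at 169 and 92.5 FPKM (log2 ratio -0.87). EGR1 was at 93.8 and 47.5 FPKM (log2 ratio -0.98). Among the listed AP-1 subunits, FOS (60.6 and 34.3 FPKM), FOSL1 (23.3 and 15.3 FPKM) and JUNB (115 and 91.6 FPKM) were lower in siPAX9, and JUN (12.4 and 21.8 FPKM), JUND (43.0 and 77.6 FPKM), FOSL2 (55.4 and 90.9 FPKM) and FOSB (0.357 and 0.628 FPKM) were higher, all within 2-fold.

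A locus of 122 bases without a symbol (chromosome 11, hg19, 102775598-102775719), between MMP12 and MMP13, was listed at 150.4 FPKM in siNT and 530.6 FPKM in siPAX9. FPKM is scaled to length, so the same reads give a higher value at 122 bases than in a longer transcript. The level was therefore not set against the MMP genes, and the number of reads behind it was not estimated. The locus was noticed after its values were seen.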
